A study of Mus musculus with 6 samples.

Results

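The interferon regulatory factors (IRFs) were followed in leukemia cells with and without *Phf6*. They were taken as the 8 genes named *Irf1*, *Irf2*, *Irf3*, *Irf4*, *Irf5*, *Irf7*, *Irf8* and *Irf9* among the 54532 genes of the deposited table, and all 8 had enough counts to be tested. The cells were GFP+ leukemia cells sorted from mouse bone marrow and driven by a retrovirus that carries RUNX1-ETO9a (RE9a), a truncated form of the t(8;21) fusion protein of acute myeloid leukemia, together with GFP. Both groups came from transduced fetal liver cells of mice with a floxed *Phf6* allele on their only X chromosome, transplanted into male recipients. *WT Phf6,RE9a* cells are *Phf6* fl/y without Cre (replicates 1, 2 and 3), and *VC Phf6,RE9a* cells are Vav1-Cre;*Phf6* fl/y (replicates 11, 12 and 13), in which Cre is expressed throughout the blood lineages. Nothing in the labels tells whether libraries of 1 group stem from separate leukemias, and the p-values measure only the spread between these libraries. The study describes its mice as young adult males, and the passage sequenced is not given in the sources used here.

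IRFs are transcription factors that share an N-terminal DNA-binding domain with a repeat of tryptophans and read sequences built around GAAA. IRF3, IRF5 and IRF7 wait in the cytoplasm until a pathogen sensor has them phosphorylated, and then switch on interferon and cytokine genes. IRF9 gives the complex that answers type I interferon its DNA binding, IRF1 and IRF2 act as an opposed pair on shared sites, and IRF4 and IRF8 work in blood cells with partners such as PU.1 to direct the fate of B cells, monocytes and dendritic cells.

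The libraries held between 15675358 and 16817994 counts. *Phf6* itself had 1044, 827 and 1142 counts in WT cells and 388, 314 and 331 in VC cells, a log2 change of -1.66 (SE, the standard error, 0.13, with p adjusted in edgeR = 9.32e-05). Levels below are in CPM, read counts scaled to the library size after TMM normalization, unless FPKM is named. The samples were checked against lists of cell markers, summed in each library. Mast cell and basophil markers summed to between 19469 and 30767 CPM in WT and between 4978 and 5429 CPM in VC libraries, with 11 of 12 genes lower. Neutrophil markers summed to between 189 and 590 CPM and between 1135 and 4059 CPM, with 15 of 15 higher. Erythroid markers summed to between 1855 and 2638 CPM and between 5994 and 6647 CPM, with 10 of 10 higher. Of all genes tested, 21.5% were higher and 22.7% lower in VC cells at an adjusted p of 0.05 in edgeR. The level of a gene in such bulk samples cannot separate more cells of a type from more RNA per cell.

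The family did not move as a block. In VC cells 3 members (*Irf4*, *Irf8* and *Irf7*) were higher, 1 member (*Irf5*) was lower, and 4 members (*Irf1*, *Irf2*, *Irf3* and *Irf9*) did not pass an adjusted p of 0.05. Of all 14169 genes tested 44.2% passed in either direction, 21.5% higher and 22.7% lower, so the 50% of members that passed is near the background of this comparison. The median log2 change was 0.30 over the 8 members and 0.013 over all genes tested. The 3 WT and 3 VC libraries did not overlap in CPM for the same 4 called members, against 57.3% of all genes tested. *Irf4*, *Irf5* and *Irf8* passed in all 12 alternative fits, and *Irf7* in 7 of 12.

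**Figure D1:**
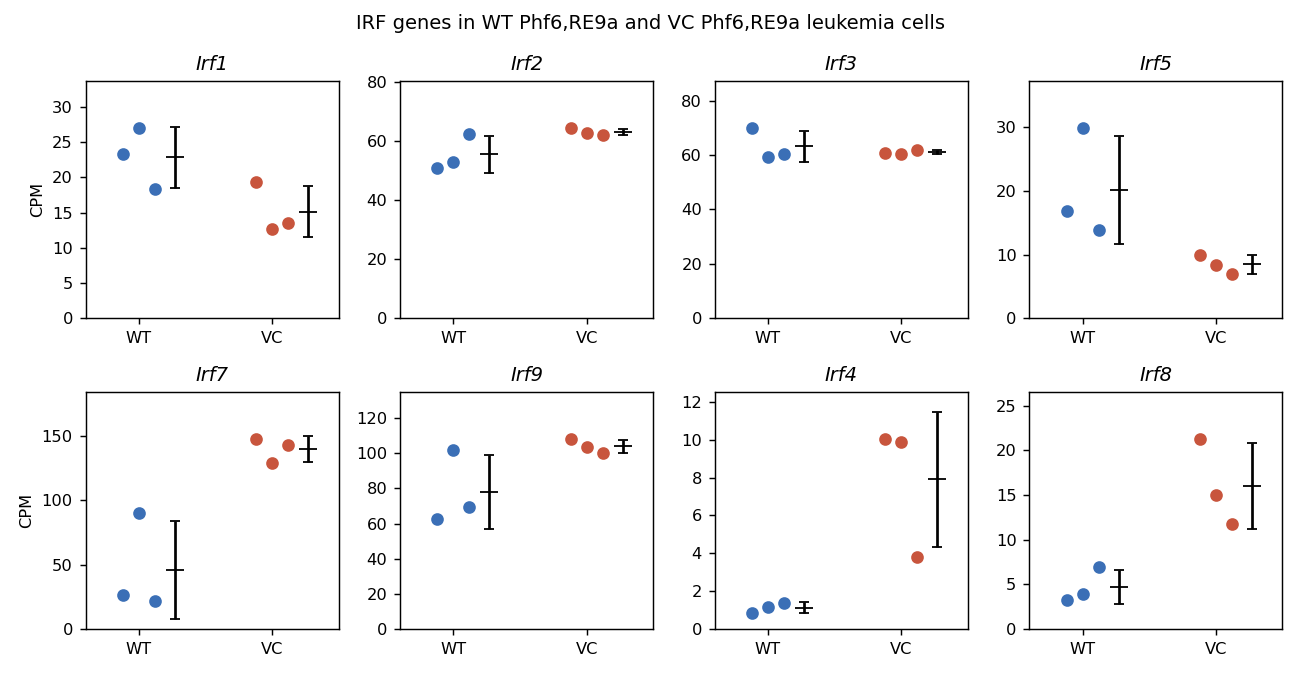
CPM of each IRF gene (vertical axes from 0, one panel per gene) in the 3 WT Phf6,RE9a (blue) and 3 VC Phf6,RE9a (red) libraries, with the mean and SD in black. In Irf4, Irf7 and Irf8 each VC point lies above every WT point, in Irf5 each VC point lies below, and in Irf7, Irf9 and Irf5 a single WT library, replicate 2, stands above the other WT libraries.

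**Figure D2:**
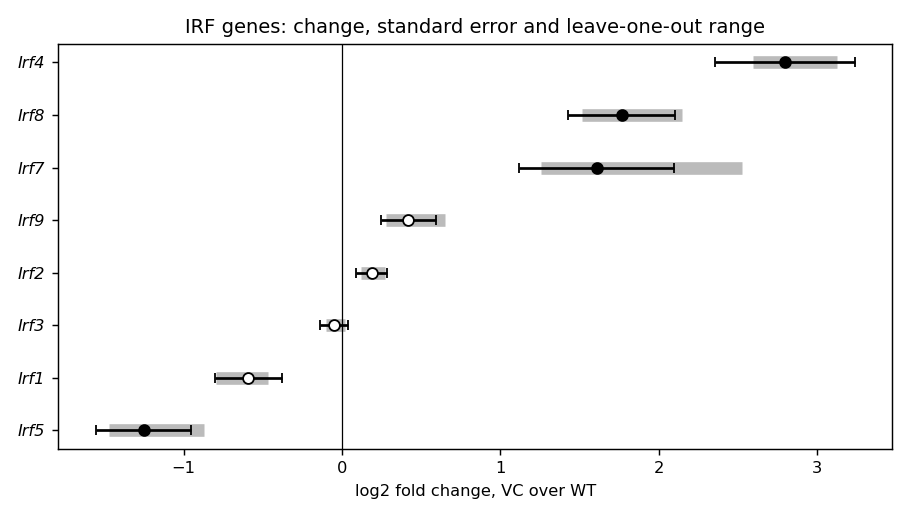
Log2 fold change of VC over WT cells for the 8 IRF genes (points, with the SE as whiskers) and the range over 6 fits that each left out 1 library (grey bars). Filled points passed an adjusted p of 0.05. The values run from -1.25 for Irf5 to 2.80 for Irf4, and the grey bar of Irf7 is the longest, from 1.26 to 2.53.

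Levels of different genes were compared per length, in the FPKM values that the authors deposited. In WT cells *Irf3* led the family at 18.2 ± 1.76 FPKM (SD, n = 3), followed by *Irf9* at 14.4 ± 3.84, *Irf7* at 12.1 ± 9.97, *Irf2* at 7.44 ± 0.795, *Irf5* at 6.89 ± 2.89 and *Irf1* at 5.71 ± 1.09 FPKM. Each neighbour in this order overlapped the next. Genes further apart did not all overlap, since the lowest *Irf3* (17.1 FPKM) and *Irf9* (11.6 FPKM) libraries lay above the highest of *Irf2* (8.35), *Irf5* (10.2) and *Irf1* (6.72 FPKM). *Irf8* at 0.660 ± 0.270 and *Irf4* at 0.229 ± 0.0545 FPKM lay apart, below them all. In VC cells *Irf7* led at 36.5 ± 2.44 FPKM, above *Irf9* at 19.1 ± 0.755, *Irf3* at 17.5 ± 0.129 and *Irf2* at 8.42 ± 0.163 FPKM, and none of these 4 overlapped its neighbour. *Irf1* at 3.76 ± 0.899, *Irf5* at 2.87 ± 0.511, *Irf8* at 2.24 ± 0.677 and *Irf4* at 1.60 ± 0.723 FPKM followed, each overlapping the next.
The make-up of the IRF pool moved with these levels. *Irf7* held 12.1%, 28.0% and 10.3% of the summed FPKM of the 8 genes in the WT libraries and 39.5%, 38.0% and 41.6% in the VC libraries. *Irf3* held 34.9%, 20.3% and 31.8% and then 17.9%, 19.6% and 19.7%. *Irf5* held between 8.60% and 12.1% and then between 2.65% and 3.48%. *Irf9* held at most 23.3% in a WT and at most 21.5% in a VC library. The share of *Irf4* and *Irf8* stayed small, at most 2.26% and 3.05% in any library.

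**Figure D3:**
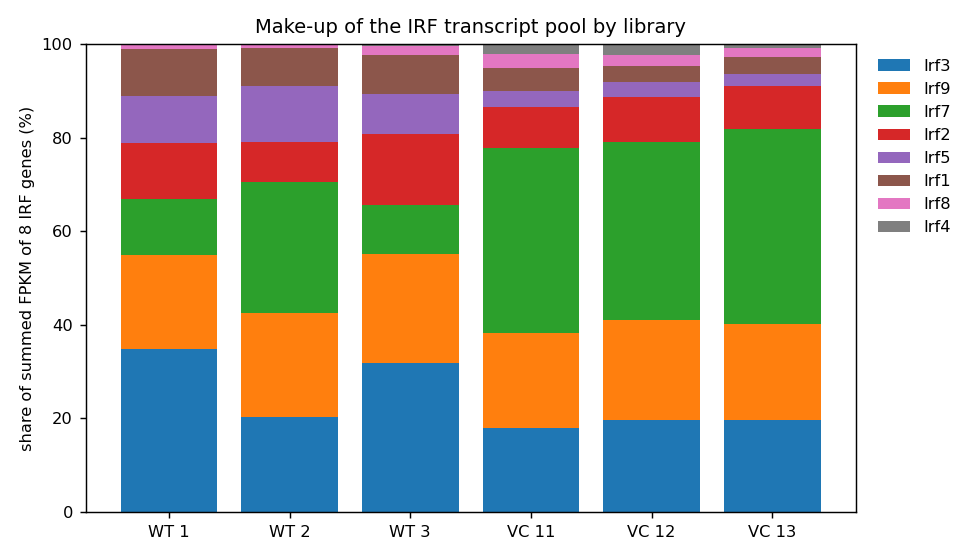
Share of each IRF gene in the summed FPKM of the 8 genes (vertical axis, percent) in each library. Irf3 is the largest part in WT 1 and WT 3, and Irf7, in green, is the largest in WT 2 and in every VC library.

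The promoters of the members were searched for sites of interferon-activated factors, because lists of interferon targets are also read below. Sites of PU.1 with IRF4 or IRF8 and of NF-κB were searched as well. RefSeq start sites on GRCm38.p6 gave 11 windows for the 8 members, each from 250 bases before to 50 after a start. The motifs, sought on both strands, were the ISRE of IRF and IRF9 complexes (GAAA and again GAAA after any 2 bases), the composite site of PU.1 with IRF4 or IRF8 (GGAA and GAAA with any 2 bases between), the GAS site of STAT dimers (TTCNNNGAA) and a κB site of NF-κB (GGGNNTTCC). The ISRE was found in 3.44%, the composite site in 2.72%, the GAS site in 8.3% and the κB site in 5.82% of all 32851 promoter windows. The GAS letters were in 3 of the 11 member windows, of *Irf1*, *Irf2* and *Irf8*, and those of the other 3 motifs only in that of *Irf2*. The 250 bases before the start are printed 5′ to 3′ for *Irf1* (chr11:53769764-53770013, plus strand), *Irf2* (chr8:46739495-46739744, plus strand), *Irf8* (chr8:120736108-120736357, plus strand), which hold the matches, and *Irf7* (chr7:141266425-141266674, minus strand), the member with the highest level in VC cells, where no motif matched. Capitals mark the matches.
*Irf1*: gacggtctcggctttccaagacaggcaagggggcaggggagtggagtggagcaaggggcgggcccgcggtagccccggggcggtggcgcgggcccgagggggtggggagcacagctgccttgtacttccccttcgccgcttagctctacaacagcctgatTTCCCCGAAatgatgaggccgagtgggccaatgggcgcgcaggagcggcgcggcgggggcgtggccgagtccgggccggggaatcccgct
*Irf2*: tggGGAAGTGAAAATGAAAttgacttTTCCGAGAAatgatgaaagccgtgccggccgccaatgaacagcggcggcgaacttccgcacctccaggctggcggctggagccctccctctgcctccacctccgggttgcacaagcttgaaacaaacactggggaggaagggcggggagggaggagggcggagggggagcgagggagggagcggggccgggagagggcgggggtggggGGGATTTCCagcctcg
*Irf7*: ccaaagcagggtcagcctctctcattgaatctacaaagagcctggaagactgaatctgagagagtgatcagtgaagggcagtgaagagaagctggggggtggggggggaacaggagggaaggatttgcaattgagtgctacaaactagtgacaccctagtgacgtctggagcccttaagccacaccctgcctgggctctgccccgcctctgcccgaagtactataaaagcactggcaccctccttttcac
*Irf8*: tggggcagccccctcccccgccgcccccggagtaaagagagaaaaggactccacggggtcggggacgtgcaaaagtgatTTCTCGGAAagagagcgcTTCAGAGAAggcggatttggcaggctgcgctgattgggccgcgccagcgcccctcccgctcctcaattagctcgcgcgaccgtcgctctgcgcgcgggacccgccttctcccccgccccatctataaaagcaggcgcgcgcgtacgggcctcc
In *Irf1* the capitals are a GAS match from base -90 to -82 before the start. In *Irf8* they are a pair of GAS matches, from -171 to -163 and from -153 to -145. In *Irf2* the composite site from -247 to -238 overlaps the ISRE from -241 to -232, followed by a GAS match from -224 to -216 and a κB match from -16 to -8. These matches describe the letters of the windows and show no binding. Only these letters were sought, so a window without a match may hold another form of a site, such as κB.

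*Irf7*, itself an interferon target and the main inducer of interferon-α genes, had the highest count of the family in VC cells. It lies at 141262706 to 141266481 of chromosome 7 (GRCm38). Reads counted were 409, 1322 and 356 in WT and 2497, 2207 and 2410 in VC libraries. The VC libraries lay close together, above all WT libraries, and WT replicate 2 stood 3.73-fold above the mean of the other WT libraries. The mean rose from 45.9 ± 38.0 to 139.7 ± 9.88 CPM (mean ± SD, n = 3), with a log2 change of 1.61 (SE 0.49, adjusted p = 0.0299). That library decided the size of the change. Without WT replicate 2 the log2 change was 2.53 (adjusted p = 5.86e-05), and when any of the other 5 libraries was left out *Irf7* did not pass, with an adjusted p of 0.0873 at the highest. *Phrf1*, which overlaps *Irf7* on the other strand, had a log2 change of 0.11 (SE 0.072, adjusted p = 0.251), and the sources do not say whether counting used strand.

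*Irf9*, the DNA-binding subunit of the complex that answers type I interferon, showed the same library standing out. Its counts were 962, 1500 and 1146 in WT and 1831, 1778 and 1690 in VC libraries. WT replicate 2 reached into the range of the VC libraries, so the groups overlapped. The log2 change was 0.42 (SE 0.17, adjusted p = 0.0841), and 0.65 without WT replicate 2 (adjusted p = 0.00125), the only fit of the 12 alternatives in which *Irf9* passed. *Irf9* overlaps *Rnf31* on the same strand (chromosome 14, 55603571 to 55610030), so reads of both could be shared, and *Rnf31* had a log2 change of -0.38 (SE 0.087, adjusted p = 0.00999).

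*Irf3*, the constitutive factor that starts interferon-β transcription once TBK1 has phosphorylated it, was the most even member. Its counts were 1075, 874 and 999 in WT and 1028, 1037 and 1041 in VC libraries, and the groups overlapped. The log2 change was -0.051 (SE 0.091, adjusted p = 0.682), and it ran from -0.10 to 0.020 over all alternatives. The gene lies on chromosome 7 from 44997648 to 45002848 and overlaps *Bcl2l12* on the other strand.

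*Irf5*, which carries Toll-like receptor signals through MyD88 to inflammatory cytokine genes, was the member that fell. It lies on chromosome 6 from 29526625 to 29541871. Reads counted were 260, 439 and 228 in WT and 169, 143 and 118 in VC libraries. Each VC library lay under every WT library, and WT replicate 2 was again the highest. Mean level moved from 20.2 ± 8.48 to 8.44 ± 1.49 CPM (mean ± SD, n = 3), with a log2 change of -1.25 (SE 0.30, adjusted p = 0.0122). Leaving out single libraries gave values from -1.47 to -0.87, the smallest without WT replicate 2, and all 6 fits passed. *Tnpo3*, which overlaps it on the other strand, had a log2 change of -0.050 (SE 0.077, adjusted p = 0.634).

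*Irf1*, an activator of antigen presentation and interferon-γ targets, and its antagonist *Irf2* pointed in opposite directions and neither passed. *Irf1* (chromosome 11, 53770014 to 53778374) had 359, 397 and 302 counts in WT and 327, 217 and 227 in VC libraries. VC replicate 11 lay within the WT range. The log2 change was -0.59 (SE 0.21, adjusted p = 0.0552), and *Irf1* passed in 4 of 12 alternatives, among them without VC replicate 11, at -0.80 (adjusted p = 0.0274).
*Irf2* (chromosome 8, 46739732 to 46847458) had 784, 780 and 1032 counts in WT and 1088, 1079 and 1046 in VC libraries. The VC libraries were alike and WT replicate 3 lay among them in CPM. The log2 change was 0.19 (SE 0.099, adjusted p = 0.166), and it passed only without WT replicate 3, at 0.27 (adjusted p = 0.0336).

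*Irf4* and *Irf8*, the members restricted to immune cells, were low in WT cells and rose. In the order of the changes *Irf8* lay above *Irf7* (1.77 against 1.61), but below it without WT replicate 2 (1.64 against 2.53), without VC replicate 11 (1.51 against 1.57) and in both limma fits, and on log2(FPKM + 1) *Irf7* (1.78) lay above *Irf4* as well. *Irf4*, needed for plasma cells and for some T cells and dendritic cells, lies on chromosome 13 from 30749226 to 30766976. It had 13, 17 and 23 counts in WT and 170, 170 and 64 in VC libraries. VC replicate 13 was well under the other VC libraries and still above every WT library. Mean level moved from 1.13 ± 0.275 to 7.91 ± 3.56 CPM (SD, n = 3), a 6.95-fold rise (log2 change 2.80, SE 0.44, adjusted p = 0.00190). It was 3.13 without VC replicate 13, and 1.04 with limma on log2(FPKM + 1), where the pseudocount of 1 exceeds the FPKM of all WT libraries and of VC replicate 13.
*Irf8*, which steers progenitors to monocytes and dendritic cells and away from granulocytes, lies on chromosome 8 from 120736358 to 120756694. It had 50, 58 and 114 counts in WT and 360, 258 and 198 in VC libraries. Again VC replicate 13 was the lowest of its group and above every WT library. Mean level moved from 4.69 ± 1.94 to 16.0 ± 4.82 CPM (SD, n = 3), a 3.40-fold rise (log2 change 1.77, SE 0.34, adjusted p = 0.00467). With limma on log2(FPKM + 1) it was 0.96.

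Markers of some other cells moved with these 2 members. B cell markers summed to 3.25, 2.85 and 8.78 CPM in WT and 75.6, 76.6 and 27.2 CPM in VC libraries, and all 6 of the 10 that were tested were higher. Genes this low in WT libraries could pass the count filter through their VC libraries. The filter may therefore have set that direction, and the count is no separate support. *Pax5*, the B lineage factor, had 0, 0 and 6 counts and then 113, 110 and 20. Like *Irf4*, the list was lowest among VC libraries in replicate 13, as were all 15 neutrophil markers, whose sums there were 4059, 2650 and 1135 CPM. Over all genes tested, 35.1% were lowest in VC replicate 13. Dendritic cell markers summed to between 28.5 and 56.8 CPM in WT and between 123 and 156 CPM in VC libraries. Of the 10 tested 3 were higher, 30.0% against 21.5% of all genes tested, and 0 lower. Among the higher ones were *Zbtb46* (5, 18 and 23 counts, then 646, 889 and 619) and *Tcf4* (11, 8 and 39, then 732, 550 and 769). Without these 2 genes, a sum added after the data were seen, the other 12 overlapped between the groups, at 27.5 to 53.0 CPM and 40.3 to 74.9 CPM. Monocyte and macrophage markers overlapped between the groups, at 198 to 211 CPM and 136 to 256 CPM, with 3 higher and 2 lower of 15. T and NK cell markers were low in both groups, at most 4.54 and 17.4 CPM in sum, with 2 of 13 tested and both higher. For these too the count filter may have set the direction. No marker of any list was at 0 in all libraries of a group. The part of these cells in the change of *Irf4* and *Irf8* was not tested.

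**Figure D4:**
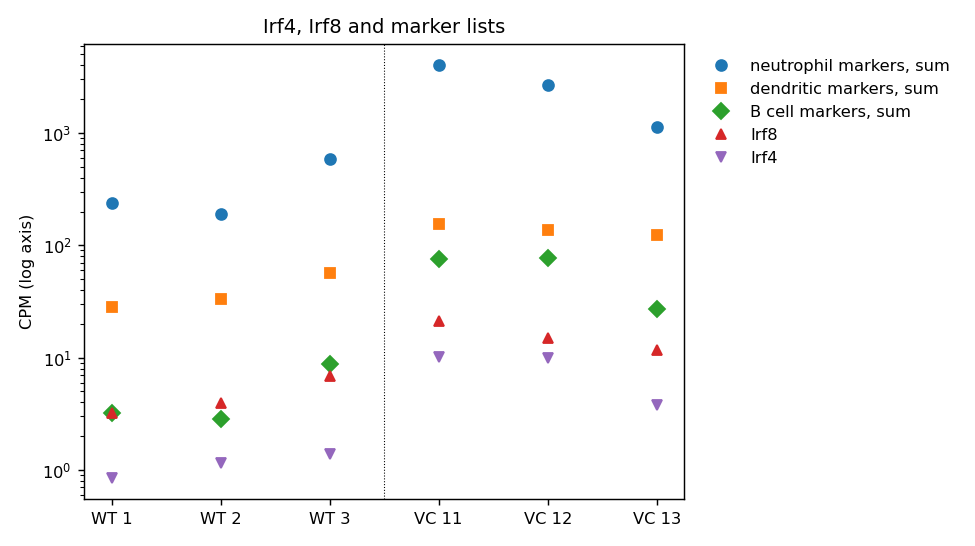
CPM on a log axis of Irf4 and Irf8 and of the summed neutrophil, dendritic and B cell markers in each library (WT 1 to 3, VC 11 to 13). All 5 series are higher in each VC library than in every WT library, and VC 13 is the lowest VC library in each. The dendritic sums separate through Zbtb46 and Tcf4, without which they overlap.

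The genes whose log2 CPM ran most like that of *Irf4* over the 6 libraries were *Gsr* (Pearson's r 0.999), *Adam19* (0.997) and *Olfml2b* (0.994). For *Irf5* they were *Ralb* (0.997), *Gm43328* (0.997) and *Usp30* (0.996). With 2 groups of 3 libraries such values rest largely on the difference between the groups and on library composition, and they describe these libraries only. Among the members themselves r was 0.96 for *Irf7* with *Irf9*, 0.96 for *Irf4* with *Irf8* and 0.92 for *Irf1* with *Irf5*.

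Upstream of the IRFs, a list of 26 sensors, adaptors and kinases was read, of which 24 were tested. In VC cells 10 were higher and 3 lower, 41.7% and 12.5% of those tested against 21.5% and 22.7% of all genes, with a median log2 change of 0.14. The 3 genes with the smallest p belong to the cytosolic RNA pathway and rose. *Trim25*, the ligase that activates RIG-I, went from 85.3 ± 15.1 to 250.9 ± 8.11 CPM (mean ± SD, n = 3), with a log2 change of 1.56 (SE 0.13, adjusted p = 0.000135). *Mavs*, the mitochondrial adaptor of that pathway, went from 204 ± 24.2 to 439 ± 4.12 CPM (log2 change 1.10, SE 0.10, adjusted p = 0.000191), and *Ifih1*, the RNA sensor MDA5, rose by 1.51 (SE 0.22, adjusted p = 0.00133). *Ifih1* had 17.3, 31.8 and 19.5 CPM in the WT libraries, highest in replicate 2. That library was the highest WT library in 11 of the 24 genes tested, 45.8% against 35.9% of all genes. Whether these genes changed before or after the IRFs was not tested. The kinase of IRF3, *Tbk1*, named after its values were seen, had a log2 change of -0.092 (SE 0.10, adjusted p = 0.509). *Tmem173*, the adaptor STING of the DNA pathway, and *5430427O19Rik*, the TASL adaptor that recruits IRF5 to endosomal receptors, were likewise named after their values were seen. They fell by 0.94 (adjusted p = 0.00745) and by 1.31 (adjusted p = 0.00134) on the log2 scale.

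The interferon genes themselves were hardly read. None of the 21 passed the count filter, 11 had no count in any library, and 17 had at most 3 counts in every library. *Ifnb1* had 1 count in VC replicate 11 and 0 in the other libraries, and *Ifng* at most 4. The list summed to 0.260, 1.63 and 0.908 CPM in WT and 0.531, 0.524 and 0.416 CPM in VC libraries. *Ifna1* and *Ifna2* (5 counts each) and *Ifna4* (3 counts), named after their values were seen, were read among WT libraries only in replicate 2. In VC replicate 11 *Ifna2* had 1 and *Ifna4* 2 counts. These counts are too few to compare. A count of 0 allows up to 3 counts, between 0.178 and 0.191 CPM of a library's total here, and covers counting error only. The highest count of the list was 12, of *Ifnz* in WT replicate 3.

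Between interferon and the IRF genes, 13 receptors, kinases, STATs and inhibitors were tested, 2 higher and 5 lower, with a median log2 change of 0.11. These are 15.4% and 38.5%, against 21.5% and 22.7% of all genes, and the higher ones numbered 1 without WT replicate 1, VC replicate 11 or VC replicate 12 and 4 without WT replicate 2. *Ifnlr1*, the ligand-binding chain of the interferon-λ receptor, went from 12, 8 and 11 counts to 455, 396 and 389, a log2 change of 5.18 (SE 0.21, adjusted p = 1.87e-05). The other gene that rose was *Ifngr1*, a chain of the interferon-γ receptor (1.24, adjusted p = 0.0370). *Ifngr1* did not pass without WT replicate 1, without VC replicate 11 or without VC replicate 12. The 5 that fell were the kinases *Jak1*, *Jak2* (-0.49, adjusted p = 0.00618) and *Tyk2* (-0.44, adjusted p = 0.0113) and the inhibitors *Socs1* and *Ptpn2*. Of these, *Ifngr1*, *Jak2* and *Tyk2* are named after their values were seen. *Socs1* fell by 1.53 (SE 0.17, adjusted p = 0.000422) and the phosphatase *Ptpn2* fell by 1.18 (SE 0.11, adjusted p = 0.000199) on the log2 scale. The most abundant gene per length, the kinase *Jak1*, fell by 0.35 (SE 0.093, adjusted p = 0.0186), and did not pass without VC replicate 11 and without VC replicate 12 (adjusted p = 0.0891 and 0.077). *Stat2*, a partner of IRF9 named after its values were seen, had a log2 change of 0.14 and did not pass (adjusted p = 0.454).

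Of 21 partners and regulators of IRFs 19 were tested, 7 higher and 6 lower, with a median log2 change of -0.0063. These are 36.8% and 31.6%, against 21.5% and 22.7% of all genes. *Spib*, the relative of PU.1 that binds with IRF4 and IRF8, went from 3, 2 and 5 counts to 140, 138 and 56, lowest among VC libraries in replicate 13 as *Irf4* was (log2 change 4.89, SE 0.52, adjusted p = 0.000333). PU.1 itself (*Spi1*, named after its values were seen) did not pass (0.20, adjusted p = 0.207). *Etv6*, an ETS repressor, fell by 0.75 (SE 0.087, adjusted p = 0.000463), and *Irf2bpl*, a relative of the IRF2 binding proteins, fell by 0.92 (SE 0.11, adjusted p = 0.000653) on the log2 scale. *Jun*, the most abundant of the list per length and a partner of BATF and IRF4, had a log2 change of -0.67 with overlapping groups (SE 0.36, adjusted p = 0.169), and of -0.20 without WT replicate 1.

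Downstream, targets of type I interferon rose as a group. Of 34 genes, all tested, 27 were higher and 1 (*Ifi203*, adjusted p = 0.0494) lower, 79.4% higher against 21.5% of all genes tested, with a median log2 change of 1.81. *Ifi27l2a*, an interferon-induced membrane protein and the most abundant of the list per length, went from 289, 254 and 210 counts to 5534, 4960 and 6573 (log2 change 4.37, SE 0.19, adjusted p = 1.92e-05). The enzymes *Oas1g* and *Oas1a*, which make the activator of RNase L, rose by 2.28 (SE 0.18, adjusted p = 9.54e-05) and 1.77 (SE 0.15, adjusted p = 0.000132). They are near copies, between which the counting could split reads. *Isg15*, named after its values were seen, had a log2 change of 0.85 and did not pass (adjusted p = 0.0860).
These genes set WT replicate 2 apart as *Irf7* did. Their sum was 721, 1372 and 795 CPM in WT and 3034, 2781 and 2998 CPM in VC libraries. WT replicate 2 was the highest WT library in 28 of the 34 genes, 82.4%, where it was so in 35.9% of all genes tested. In 24 of these 28 it still lay under every VC library. Without it 32 of the 34 targets were higher, while over all genes tested the number went from 3047 to 2870. What gave that library its levels was not tested.

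Targets of type II interferon and of IRF1 passed in both directions. Of 30 genes 26 were tested, 6 higher and 4 lower, 23.1% and 15.4% against 21.5% and 22.7% of all genes, with a median log2 change of 0.15. The GTPases *Irgm1* and *Irgm2* rose by 1.55 (SE 0.19, adjusted p = 0.000552) and 1.60 (SE 0.19, adjusted p = 0.000516). *Cd274*, which encodes the checkpoint ligand PD-L1, fell by 1.21 on the log2 scale (SE 0.18, adjusted p = 0.00141). *B2m*, the light chain of MHC class I and the most abundant of the list per length, had 7212, 15208 and 7479 counts and then 8706, 6823 and 8715. WT replicate 2 was the highest WT library there too, as in 19 of the 26 genes, 73.1% against 35.9% of all genes tested. The log2 change of *B2m* was -0.45 (SE 0.31, adjusted p = 0.281) with all libraries and 0.039 without WT replicate 2. Without that library 12 genes of the list were higher, against 6 with all libraries. Over all genes tested the numbers were 2870 without it and 3047 with all libraries.

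**Figure D5:**
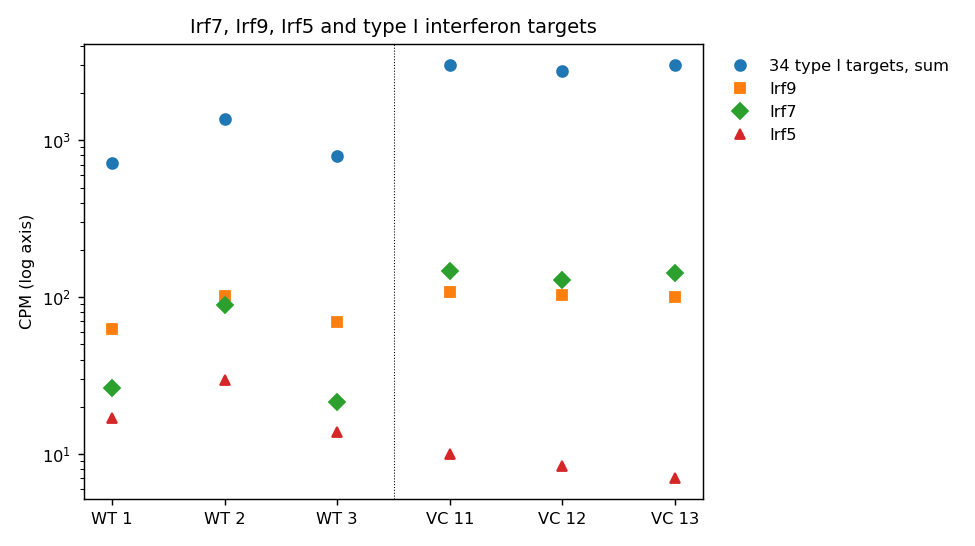
CPM on a log axis of Irf7, Irf9 and Irf5 and of the sum of 34 type I interferon targets in each library (WT 1 to 3, VC 11 to 13). WT 2 stands above WT 1 and WT 3 in all 4 series, while the VC libraries are above every WT library for Irf7 and the target sum and below every WT library for Irf5.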

How the data were processed

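RNA from 3 *WT Phf6,RE9a* and 3 *VC Phf6,RE9a* samples of sorted leukemia cells was prepared with an Illumina TruSeq kit and sequenced as paired-end reads. The authors deposited unnormalized counts for each Ensembl gene and FPKM values, which equal the counts over gene length and a library size scaled by size factors. Not used were the authors' deposited group means (a normalized signal) and their own DESeq2 comparison, given as log2 ratios and p-values. The submitters' processing notes name Bowtie 0.12.0 and the build mm8. The deposited coordinates are those of GRCm38, since 98.3% of 54409 genes shared start and end with GENCODE M21 there. The counting tool and its strandedness are not given in the sources used here.

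In R 4.3.3, counts were filtered with filterByExpr, scaled by TMM and compared with edgeR 4.0.16 (quasi-likelihood test, Benjamini-Hochberg adjustment over 14169 genes, threshold 0.05). SE is the absolute log2 change over the root of F. Correlations used log2 CPM with a prior count of 2. The tests were tried on simulated counts with 200 changed genes of 14169. That is a smaller share than the 44.2% that passed here, so the trial does not cover a difference this broad. No library repeated another (mean chi-square of a gene between replicates 11.8 to 46.4). The 12 alternatives were DESeq2 1.42.0, RLE size factors, the filter left out, a minimum of 10 counts per library, limma 3.58.1 on log2(FPKM + 1) and log2(FPKM + 0.1), and each of 6 libraries left out.

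The members, the 6 pathway lists and the 7 marker lists were chosen with earlier results of these data known. Some genes of the lists are not reported here. Named are the members, *Phf6*, the 3 genes with the smallest p and the most abundant gene by FPKM of each pathway list, and the 3 genes most like the member with the smallest p in each direction. Others are said to be named after their values were seen, or belong to markers and overlapping genes. Figures were drawn with matplotlib 3.10.9.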

Additional observations from a re-analysis of the deposited data

How the results depend on the processing

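Direction and side of the threshold were kept by 318 of 333 gene values over the 12 alternatives, 7 lost the threshold, 6 gained it and 2 changed sign. With single libraries left out *Irf3* ran from -0.10 to 0.020 (positive without WT replicate 1) and *B2m* from -0.66 to 0.039 (positive without WT replicate 2), neither past the threshold in any fit. The number of higher IRF genes, 3 with all libraries, was 2 without WT replicate 1 and without VC replicate 11, 12 or 13, and 4 without WT replicate 2. The number of lower IRF genes was 2 with DESeq2 and with no count filter, and 1 to 2 when single libraries were left out, 2 without WT replicate 3 and without VC replicate 11, where *Irf1* passed too. The number of higher interferon receptors and transducers was 1 with at least 10 counts in every library and 1 to 4 with single libraries left out, 4 without WT replicate 2. The lower type I target (*Ifi203*) was lost, 0 in number, with at least 10 counts in every library and with limma on log2(FPKM + 0.1), and the number was 0 to 1 with single libraries left out. Higher type II targets numbered 4 to 12 with single libraries left out, 12 without WT replicate 2. *Ifnlr1* and *Spib* gave no value under the filter of 10 counts. The cause of these changes was not tested. No paired analysis was possible because the groups share no replicate numbers. At the depth of these libraries the interferon genes had too few counts to compare, and the reason was not tested.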
